A study of Homo sapiens with 15 samples.

Results

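The list of 10 genes measured here in human MDA-MB-231 breast cancer cells held ANKRD1, CTGF (current symbol CCN2), CYR61 (CCN1), AMOTL2, AXL, THBS1, LATS2, F3 and EDN1, known as targets of the co-activator YAP and its DNA-binding partners of the TEAD family, and YAP1 itself. They were chosen by name, after ratios of the same comparisons had been seen, and every probe carrying 1 of these names was taken, which gave 14 of 41000 probes and 10 of 30982 gene names on the array. Because the choice read the same comparisons, the ratios of these 10 genes are given as a description and without p-values. They stayed in the fit over all genes, and where they are counted against its thresholds, the count describes the choice and is no evidence for it. Genes of the pathway outside the list were tested, but those groups were also drawn up with earlier results of these data known, so that their adjusted p-values are not independent evidence.

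Each array compared treated cells with control cells of the same line, and there were 5 arrays, labelled as biological replicates, for each of 3 treatments. shCtBP2 cells carried a stable short hairpin RNA against CtBP2, a transcriptional co-repressor that binds NADH. HIPP and P4 cells had received an inhibitor of CtBP, a hydroxyimino and a hydrazone derivative of phenylpropanoate, and were collected after 24 h. The labels name untreated MDA-MB-231 cells as the control on every array, while the study's methods set shCtBP2 cells against cells with a scrambled hairpin RNA. The study's methods state doses for growth time courses, a higher one for HIPP than for P4, but do not tie them to the arrays, so that values of these agents stand side by side without a test of their difference. All treated samples were labelled with Cy5 and all controls with Cy3, so that a ratio can hold a dye effect of its probe, and whether arrays shared a control extract is not given in the sources used here.

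The Hippo pathway is a chain of kinases, with STK3 and STK4 upstream of LATS1 and LATS2, that phosphorylates YAP and its relative TAZ (gene WWTR1) and keeps them out of the nucleus. Unphosphorylated YAP and TAZ enter the nucleus, bind TEAD factors and switch on genes for growth, matrix and adhesion. ANKRD1, CTGF and CYR61 are the genes most often read as a measure of this output. MDA-MB-231 is a mesenchymal-like triple-negative line that lacks a working NF2, an upstream activator of the kinases, and is known for active YAP.

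The TEAD family binds the letters GGAATG, read on either strand and so also searched as the reverse complement CATTCC. The AP-1 factors, which often lie next to TEAD factors, bind TGANTCA, which reads the same on both strands. Promoter sequence from RefSeq (build GRCh38.p14) was given for 9 of the 10 genes, with 13 start sites in all, and the 250 bases before each start were searched. GGAATG was found before at least 1 start of 7 of these 9 genes and before 7 of the 13 starts, against 11.9% of 35116 promoters in the whole table. TGANTCA was found for 2 of the 9 genes and before 2 of the 13 starts, against 6.57% of promoters. The 4 stretches printed here are those of ANKRD1 and CTGF, each with the lowest mean ratio of the list in at least 1 treatment, of THBS1, which has a match close to its start, and of F3, the gene of the list that was called lower with shCtBP2 and with neither inhibitor. Matches are in capitals, and each stretch ends at the base before the start.
ANKRD1: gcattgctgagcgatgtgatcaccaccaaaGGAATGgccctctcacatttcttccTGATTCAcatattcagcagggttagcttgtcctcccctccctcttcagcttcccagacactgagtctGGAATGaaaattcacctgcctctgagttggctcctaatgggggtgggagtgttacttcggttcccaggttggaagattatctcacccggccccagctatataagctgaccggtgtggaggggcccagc
CTGF: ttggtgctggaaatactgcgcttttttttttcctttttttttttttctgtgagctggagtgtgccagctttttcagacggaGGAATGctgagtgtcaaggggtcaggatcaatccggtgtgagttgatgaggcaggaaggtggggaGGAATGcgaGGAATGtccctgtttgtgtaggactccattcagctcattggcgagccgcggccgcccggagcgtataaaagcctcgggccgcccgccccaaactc
THBS1: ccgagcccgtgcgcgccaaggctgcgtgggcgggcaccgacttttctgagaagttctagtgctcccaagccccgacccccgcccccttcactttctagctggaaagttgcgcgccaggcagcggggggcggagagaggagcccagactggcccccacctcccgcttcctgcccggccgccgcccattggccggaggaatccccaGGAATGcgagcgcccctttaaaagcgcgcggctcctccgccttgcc
F3: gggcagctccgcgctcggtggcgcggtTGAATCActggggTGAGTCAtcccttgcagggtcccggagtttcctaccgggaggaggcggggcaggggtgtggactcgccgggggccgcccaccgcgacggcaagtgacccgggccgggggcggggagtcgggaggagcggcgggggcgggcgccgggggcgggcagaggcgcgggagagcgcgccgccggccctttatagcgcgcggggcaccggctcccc
The ANKRD1 stretch (chr10:90921088-90921337, minus strand) holds GGAATG starting 220 and 128 bases before the start and 1 TGANTCA match 195 bases before it. The CTGF stretch (chr6:131951373-131951622, minus strand) holds GGAATG 3 times, starting 169, 104 and 95 bases before the start, a number reached by 0.0826% of all promoters. The THBS1 stretch (chr15:39580829-39581078, plus strand) has 1 GGAATG match at 46 bases, and the F3 stretch (chr1:94541760-94542009, minus strand) has 2 TGANTCA matches, at 223 and 210 bases, a number reached by 0.402% of promoters. A single GGAATG match was also found for YAP1 and before 1 of the starts of AMOTL2, AXL and EDN1. Neither motif was found for LATS2 in this window. A match is a stretch of letters and was not tested as a binding site, and no entry was used for CYR61.

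On each array 43376 spots carried gene probes. The software marked 65.2 to 77.5% of them as well above background for the treated cells and 64.9 to 81.0% for the control cells, and 0 were saturated. All 10 genes were well above background in both channels on all 15 arrays, so that every ratio given for them was measured on both sides. P4 replicate 1 resembled the other P4 arrays least over all genes, with a mean correlation of 0.32 with the other 4 and a lowest value of 0.012 with replicate 3. VIM, CD44 and MSN, markers of mesenchymal-like cells, were well above background on all arrays, and CDH1 and PGR on none in either channel. FOXA1 and GATA3, which such a line is known to hold at low level, were above background on all arrays, and ESR1 on 12 of 15 in the treated channel. The leukocyte gene PTPRC was above background in 2 of the 30 channels. The endothelial gene PECAM1 was above background in 29 of them, with log2 ratios of 0.28 ± 0.27, −1.95 ± 0.26 and −0.74 ± 0.40 (SD, n = 5) for shCtBP2, HIPP and P4. Its part in the results was not tested.

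CTBP2, the target of the hairpin RNA, was at 75.4% of the control signal in shCtBP2 cells, or −0.41 ± 0.11 on the log2 scale (SD, n = 5, limma adjusted p = 0.0595). It was lower on 5 of 5 arrays but passed neither threshold. By real-time PCR, against cells with the scrambled hairpin RNA, the study reported a larger decrease of CtBP2 mRNA, and also less protein. A gene is called here when its limma adjusted p is at most 0.05 and its linear fold change at least 1.5 for shCtBP2, 2.5 for HIPP and 1.8 for P4, the study's thresholds.

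ANKRD1, an ankyrin repeat protein that acts in the nucleus and at the sarcomere, was lower than the control on all 15 arrays. In shCtBP2 cells its log2 ratios were −1.05, −1.15, −1.15, −1.95 and −1.47 on replicates 1 to 5. With HIPP they were −1.93, −1.96, −2.12, −1.95 and −2.57. With P4 they were −0.67, −2.18, −1.32, −1.59 and −1.41. The HIPP values were the lowest as a group and the P4 values the most scattered, with replicate 1 nearest to 0. The means were −1.35 ± 0.37, −2.11 ± 0.27 and −1.43 ± 0.54 (SD, n = 5), which are 39.2%, 23.2% and 37.0% of the control signal. The shCtBP2 and P4 means differ by less than the spread of either, and the range of the P4 values overlaps those of both other treatments. Ordered from the lowest mean ratio of 27574 genes tested in each treatment, ANKRD1 stood at place 105 with shCtBP2, 204 with HIPP and 185 with P4. Its single probe lies at chr10:92662542-92662601 (build hg17, as in the array's annotation).

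The control signal of ANKRD1 lay between 6071 and 7831 on the shCtBP2 arrays, between 8223 and 14401 on the HIPP arrays and between 6129 and 11762 on the P4 arrays. The treated signal lay between 2033 and 3199.6, between 2156 and 3302 and between 1351 and 4883. The treated and control ranges did not overlap in any treatment. The control signals were higher on the HIPP arrays than on the shCtBP2 arrays while the treated signals covered nearly the same range. Control medians of the other genes of the list and of CTBP2 were higher there as well. For YAP1 they were 1126 with HIPP and 556 with shCtBP2, and for CTBP2 7326 and 5112. Signals were not scaled between arrays here, so that no difference in the ANKRD1 level of the controls is read from them. Bulk RNA cannot tell a lower level in each cell from a change in which cells were present.

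**Figure D1:**
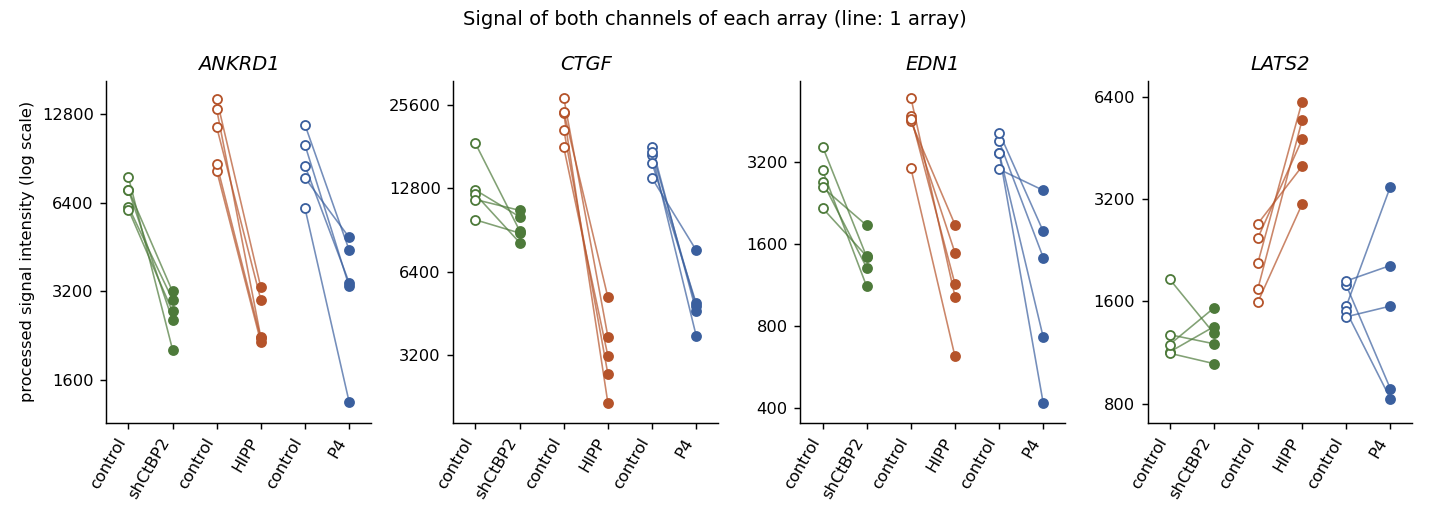
Processed signal intensity (log scale) of ANKRD1, CTGF, EDN1 and LATS2 in the control channel (open circles) and the treated channel (filled circles) of each of the 15 arrays, joined by a line per array. ANKRD1 lines fall on all 15 arrays, CTGF lines fall from between 17989.5 and 27166 to between 2149.5 and 5171 with HIPP, and LATS2 lines rise on the 5 HIPP arrays and run both ways with P4.

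Within slide 3, which held 2 shCtBP2 and 2 HIPP arrays, ANKRD1 had mean log2 ratios of −1.10 and −2.26. Within slide 2 the 3 HIPP arrays gave −2.01 and the single P4 array −1.41. With slide as a block in the fit the value was −1.09 for shCtBP2, where the gene was then not called, −2.25 for HIPP and −1.65 for P4.

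CTGF and CYR61 encode secreted matricellular proteins that bind integrins and growth factors, and they parted from ANKRD1 in shCtBP2 cells. The log2 ratios of CTGF were −0.32, −1.05, −0.58, −0.13 and −0.16 with shCtBP2. They were −2.50, −3.47, −2.23, −2.86 and −2.93 with HIPP, and −1.97, −2.17, −0.86, −1.68 and −1.85 with P4. CTGF was thus below its control on all 15 arrays, but every HIPP value was lower than every shCtBP2 value by more than 1 log2 unit. The means were −0.45 ± 0.38, −2.80 ± 0.47 and −1.71 ± 0.50 (SD, n = 5), or 73.4%, 14.4% and 30.6% of the control. It stood at place 49 from the lowest of all genes tested with HIPP and at place 72 with P4, against 2708 with shCtBP2.

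CYR61 was not lower in shCtBP2 cells, where its ratios were 0.63, 0.15, −0.32, 0.13 and 0.18, with a mean of 0.15 ± 0.33 (SD, n = 5). With HIPP they were −0.84, −1.08, −1.26, −1.65 and −1.11 (mean −1.19 ± 0.30). With P4 they were −0.94, −1.71, −1.60, −1.52 and −1.74 (mean −1.50 ± 0.33). The ranges with HIPP and P4 overlap, and both lie wholly below that with shCtBP2. Unlike ANKRD1 and CTGF, CYR61 had a lower mean with P4 than with HIPP, an order that was not tested and that background-subtracted signals without dye normalization did not keep apart (−1.10 with HIPP and −1.12 with P4). Its 3 probes (chr1:85761192-85761251, chr1:85760974-85761033 and chr1:85760465-85760524, build hg17) gave means between −1.30 and −0.97 with HIPP and between −1.63 and −1.32 with P4.

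EDN1, the vasoconstrictor peptide endothelin-1, came closest to ANKRD1 within the list by root mean square difference of the log2 ratios over the 15 arrays. Its probe is spotted 10 times on each array and lies at chr6:12404658-12404717 (build hg17). The ratios were −0.59, −1.35, −1.05, −1.42 and −0.47 with shCtBP2, −2.30, −2.05, −2.43, −1.27 and −1.63 with HIPP, and −0.26, −3.06, −2.26, −1.42 and −1.21 with P4. All 15 were below 0, and the P4 arrays ran from nearly no difference on replicate 1 to the lowest value of the gene on replicate 2. The means were −0.97 ± 0.43, −1.94 ± 0.48 and −1.64 ± 1.07 (SD, n = 5), and those of HIPP and P4 differ by less than the spread of P4.

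**Figure D2:**
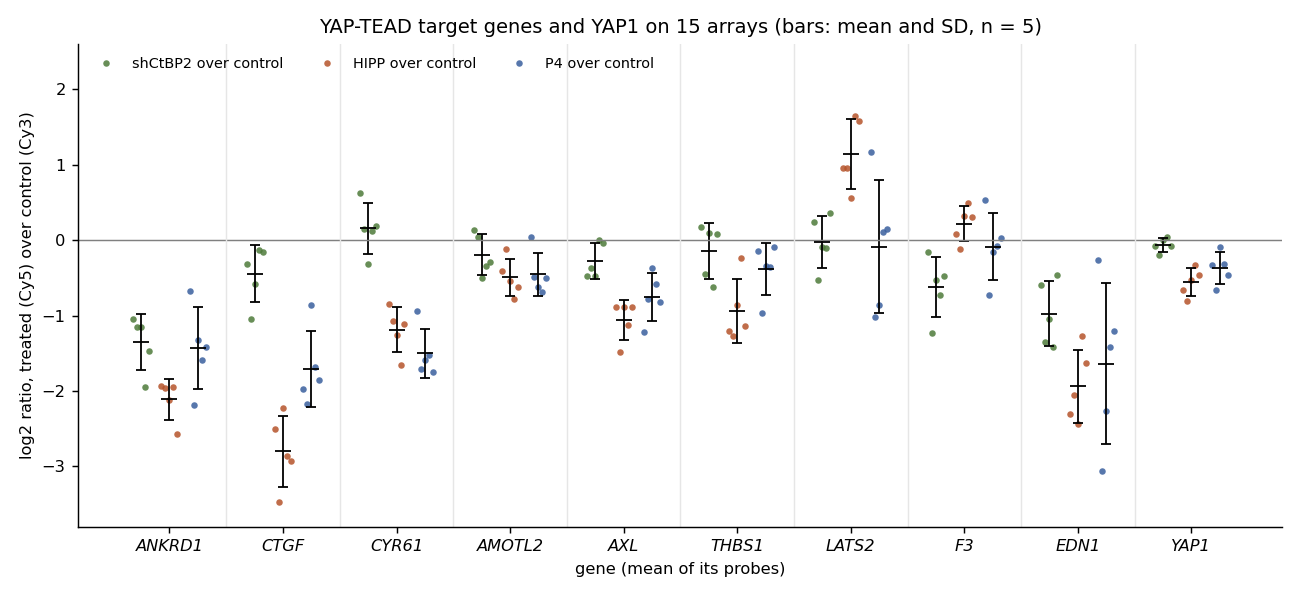
Log2 ratio of treated over control (y axis) for the 10 genes (x axis) on the 5 arrays of each treatment, with points for arrays in the order of their replicate numbers and black bars for the mean and SD. ANKRD1 and EDN1 lie below 0 with all 3 treatments, the means of CTGF and CYR61 lie lower with HIPP and P4 than with shCtBP2, and LATS2 lies above 0 with HIPP alone among its group means.

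AXL, THBS1 and AMOTL2 differed less. AXL, a receptor tyrosine kinase tied to invasion, had mean ratios of −0.27 ± 0.24, −1.05 ± 0.26 and −0.75 ± 0.31 (SD, n = 5) for shCtBP2, HIPP and P4 and was lower on all 15 arrays. Its HIPP values ran from −1.49 to −0.88 and its P4 values from −1.22 to −0.38, ranges that overlap, while the shCtBP2 values ran from −0.48 to just below 0. THBS1, the matrix glycoprotein thrombospondin-1, had −0.15 ± 0.37, −0.94 ± 0.42 and −0.38 ± 0.35, with all 5 HIPP and all 5 P4 arrays below 0 and 3 of 5 shCtBP2 arrays above it. AMOTL2, an angiomotin that binds YAP and is also its target, had −0.19 ± 0.27, −0.49 ± 0.25 and −0.45 ± 0.29. All 5 HIPP arrays were below 0 for AMOTL2, but P4 replicate 1 was at 0.038.

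LATS2 and F3 ran otherwise. LATS2, the kinase that phosphorylates YAP and is itself switched on by YAP, had ratios of 0.96, 0.96, 0.56, 1.65 and 1.57 with HIPP, all above 0, with a mean of 1.14 ± 0.46 (SD, n = 5) or 220% of the control. With shCtBP2 they were 0.25, −0.53, −0.09, −0.10 and 0.36 (mean −0.02 ± 0.35). With P4 they were 1.17, −1.01, −0.85, 0.10 and 0.15 (mean −0.09 ± 0.88), a spread that covers both directions and gives no level. Within slide 2 the 3 HIPP arrays gave 0.83 and within slide 3 the other 2 gave 1.61.

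F3, tissue factor, which starts blood coagulation, was lower on all 5 shCtBP2 arrays, at −0.16, −1.23, −0.53, −0.72 and −0.47 (mean −0.62 ± 0.39, SD, n = 5). With HIPP it was above 0 on 4 of 5 arrays (mean 0.22 ± 0.24), and with P4 its values ran from −0.73 to 0.53 (mean −0.08 ± 0.45). The shCtBP2 and HIPP ranges did not overlap, with shCtBP2 replicate 1 at −0.16 and HIPP replicate 2 at −0.11 nearest to each other.

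YAP1 itself, averaged over its 2 probes, was near its control with shCtBP2 (−0.07 ± 0.09) and somewhat below it with HIPP (−0.56 ± 0.18) and P4 (−0.37 ± 0.21, SD, n = 5), but these averages join probes that ran in opposite directions. Probe 1 (chr11:101605794-101605853, build hg17) had a mean of 0.56 ± 0.34 with HIPP and was higher on 5 of 5 arrays, between 0.13 and 0.97. Probe 2 (chr11:101608142-101608201) had −1.68 ± 0.35 and was lower on 5 of 5, between −2.16 and −1.18. With P4 the probes gave 0.13 ± 0.29 and −0.87 ± 0.48, and with shCtBP2 both stayed within 0.24 of 0. Both probes were well above background in both channels on all arrays. No level of the YAP1 transcript as a whole can be read from them. The 2 THBS1 probes agreed in direction with HIPP (−0.57 ± 0.38 and −1.32 ± 0.48) and P4 but not in size.

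**Figure D3:**
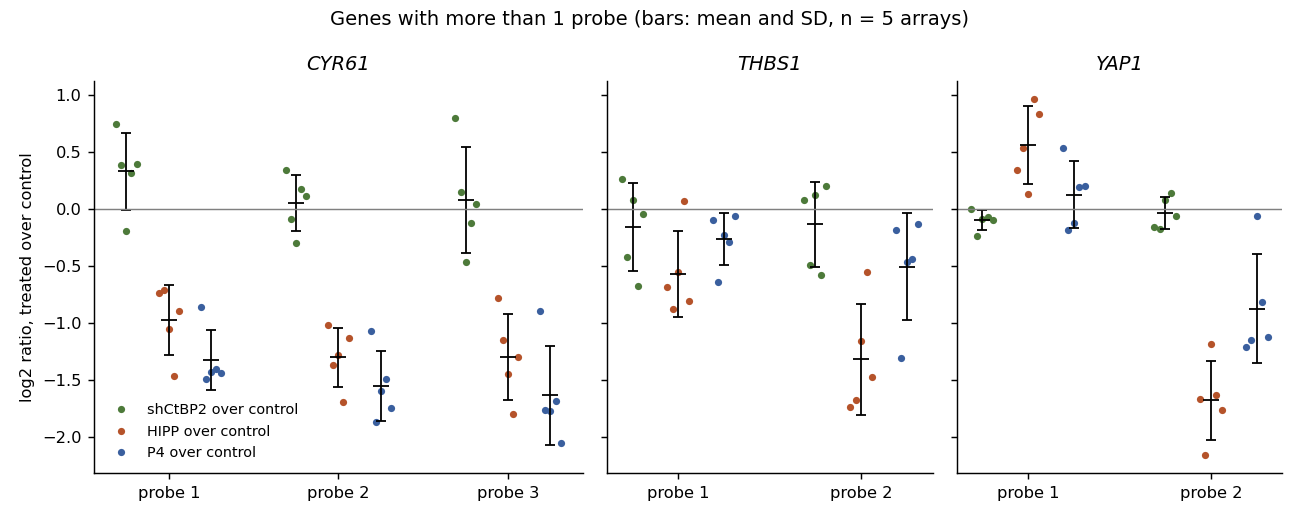
Log2 ratio of treated over control (y axis) for each probe of CYR61, THBS1 and YAP1 (x axis), with a point per array and black bars for the mean and SD of 5 arrays. The CYR61 probes run together, while YAP1 probe 1 lies above 0 and probe 2 below 0 on all 5 HIPP arrays.

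Counted with the thresholds used for all genes, 3 of the 10 genes were called with shCtBP2, all lower (ANKRD1, F3 and EDN1), where 3.21% of all 27574 genes tested were called lower and 3.34% higher. With HIPP 3 were called lower (ANKRD1, CTGF and EDN1) beside 3.61% of all genes, with 3.43% of all genes called higher. With P4 4 were called lower (ANKRD1, CTGF, CYR61 and EDN1) beside 4.17%, with 4.3% called higher, but the methods' own test, which compares the signals of the treated and control channels as separate groups, called CTGF and CYR61 alone of these 4 with P4. THBS1 with shCtBP2 and YAP1 with P4 were removed by the filter on low interquartile range, so that 9 of 10 were tested in these treatments. At a fold of 1.5 for HIPP, CYR61, AXL and THBS1 were also called lower and LATS2 higher, and the shares of all genes were 16.4% lower and 16.1% higher. At that fold for P4, AXL was also called lower, beside 8.53% of all genes lower and 8.98% higher. The genes were chosen on these comparisons, so the counts describe them and nothing more is read from them.

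The medians over the 10 genes were −0.23, −0.998 and −0.60 on the log2 scale for shCtBP2, HIPP and P4, where the medians of all genes tested were 0.04, 0.08 and 0.11. The mean ratio was below 0 for 9, 8 and 10 of the 10 genes, against 45.7%, 45.3% and 41.4% of all genes tested. On every array of the treatment 5, 8 and 7 of them were below 0, against 15.2%, 21.8% and 14.9% of all genes. YAP1, whose probes disagreed, is among the genes below 0 in all 3 treatments. EDN1 was not called with shCtBP2 when any of the 5 replicates was left out, with means between −1.10 and −0.86, and F3 was not called there without replicate 2 (−0.47) or replicate 4 (−0.60). With slide as a block, EDN1 was not called with shCtBP2 (−1.51) or P4 (−0.94), nor F3 with shCtBP2 (−0.85), where 3 of the 5 arrays filled a slide of their own. After normexp correction and loess, F3 (−0.40) and EDN1 (−0.84) were not called with shCtBP2. Without P4 replicate 1 the same 4 genes were called with P4, at −1.63 for ANKRD1, −1.64 for CTGF, −1.64 for CYR61 and −1.99 for EDN1.

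Outside the list, 3 groups of the pathway, chosen with earlier results known, were tested gene by gene. Of 14 measured YAP-TEAD targets, 10, 12 and 10 passed the filter on interquartile range and were tested with shCtBP2, HIPP and P4. With shCtBP2 1 of 10 was called lower, beside 3.21% of all genes, and with HIPP 2 of 12 were called higher, beside 3.43%. With P4 0 of 10 passed both thresholds in limma, beside 4.17% of all genes lower and 4.3% higher, and 5 had an unadjusted limma p under 0.05. At a fold of 1.5 for HIPP, 3 of 12 were called lower and 3 higher, beside 16.4% and 16.1% of all genes. At that fold for P4, 3 of 10 were called lower and 1 higher, beside 8.53% and 8.98%. TGFB2, the growth factor TGF-beta2, fell with shCtBP2 (log2 ratio −1.02 ± 0.42, SD, n = 5, limma adjusted p = 0.00163). With HIPP and P4 its values were −1.05 ± 0.47 and −0.85 ± 0.32, under the fold thresholds there although both adjusted p passed, and it was lower on all 15 arrays. GADD45A, a stress-induced growth arrest gene, rose with HIPP (1.56 ± 0.74, limma adjusted p = 1.38e-05). CCDC80, a secreted matrix protein, rose with HIPP as well (1.67 ± 0.26, limma adjusted p = 3.47e-08) and had 0.77 ± 0.23 with P4. So the called genes of this group ran in either direction, with a median over the 14 of −0.20, −0.26 and −0.15.

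Of 18 measured regulators of the Hippo kinases, 12, 15 and 18 were tested, of which 2, 1 and 2 were called lower and 0 higher, beside 3.21%, 3.61% and 4.17% of all genes lower. At a fold of 1.5 for HIPP, 3 of 15 were called lower and 3 higher, beside 16.4% and 16.1% of all genes. At that fold for P4, 4 of 18 were called lower and 0 higher, beside 8.53% and 8.98%. WWC1 and MAP4K4, which activate the kinases, fell with shCtBP2. WWC1 was at −1.32 ± 0.94 on the log2 scale (SD, n = 5, limma adjusted p = 0.00259) and MAP4K4 at −0.67 ± 0.22 (limma adjusted p = 0.00692). MAP4K4 was not called without shCtBP2 replicate 2 (−0.58), and its 4 probes ran between −1.79 and 0.90 with HIPP. AMOT, an angiomotin that holds YAP in the cytoplasm, fell with HIPP (−1.92 ± 0.71, limma adjusted p = 8.06e-06) and with P4 (−1.15 ± 0.57, limma adjusted p = 0.00173). In shCtBP2 cells AMOT was higher on 5 of 5 arrays, at 0.69 ± 0.27, and passed no adjusted threshold (limma adjusted p = 0.0592). LIMD1, a LIM protein that inhibits LATS, fell with P4 (−0.85 ± 0.42, limma adjusted p = 0.00815) and was not called without replicate 2 (−0.77), 3 (−0.75) or 5 (−0.85). The median over the 18 was −0.10, 0.20 and 0.09.

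Of 8 TEAD factors and cofactors, 7, 5 and 6 were tested, and 2 of 7 were called lower with shCtBP2 and 2 of 5 with HIPP, beside 3.21% and 3.61% of all genes. TEAD2 fell with shCtBP2 (−0.73 ± 0.20, SD, n = 5, limma adjusted p = 0.00599) and with HIPP (−1.34 ± 0.36, limma adjusted p = 4.74e-06), where it was not called without replicate 2 (−1.20). With P4 it had −0.69 ± 0.43, under the fold threshold. TEAD4 fell with shCtBP2 (−0.62 ± 0.10, limma adjusted p = 0.000193) and was not called without replicate 4 (−0.58). VGLL1, a TEAD cofactor, was called lower with HIPP (limma adjusted p = 0.000319). Its treated signal was not well above background on any HIPP array and its control signal was on 4 of 5. The channel means of VGLL1 differed by 1.06-fold, at signals near background in 2 dyes, so that no size of the difference can be given. The 4 probes of WWTR1, the gene of TAZ, disagreed in sign, with means between −0.22 and 0.38 for shCtBP2, −0.79 and 0.39 for HIPP and −0.37 and 0.36 for P4, and no level of TAZ can be read from them. With P4 0 of the 6 tested passed both thresholds and 5 had an unadjusted limma p under 0.05. At a fold of 1.5, 3 of 5 were called lower and 0 higher with HIPP, beside 16.4% and 16.1% of all genes. With P4 1 of 6 was called lower and 0 higher at that fold, beside 8.53% and 8.98%.

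Targets of MRTF and SRF, which answer to the same actin signals as YAP, were tested for comparison. Of 13 measured, 10, 11 and 9 were tested, of which 1 of 10 was called lower with shCtBP2, beside 3.21% of all genes, and 1 of 9 higher with P4, beside 4.3%. CNN1, an actin-binding protein of smooth muscle, rose with P4 to 1.97 ± 0.17 over the 5 arrays (SD, limma adjusted p = 5.68e-08). Its HIPP value was 1.25 ± 0.27, higher on 5 of 5 arrays but under the fold threshold of 2.5. TAGLN, another such protein, was called lower with shCtBP2 on the mean of its 2 probes (−0.68 ± 0.24, limma adjusted p = 0.00468). The treated signal of 1 of these probes, at −1.05, was not well above background on any shCtBP2 array, and the other probe, measured in both channels on 5 of 5, gave −0.31 ± 0.21, under the fold threshold of 1.5. With HIPP 0 of the 11 tested passed both thresholds, and 6 had an unadjusted limma p under 0.05. At a fold of 1.5 for HIPP, 1 of 11 was called lower and 2 higher, beside 16.4% and 16.1% of all genes. At that fold for P4, 0 of 9 were called lower and 1 higher, beside 8.53% and 8.98%. Of the called genes in these 4 groups, TGFB2 and MAP4K4 remained called with slide as a block for shCtBP2, GADD45A, CCDC80, AMOT and VGLL1 for HIPP, and AMOT and CNN1 for P4. After normexp correction and loess, GADD45A with HIPP and CNN1 with P4 were the only ones called. The methods' own test did not call TGFB2, WWC1 or TAGLN with shCtBP2 or LIMD1 with P4, and it called AMOT higher with shCtBP2.

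**Figure D4:**
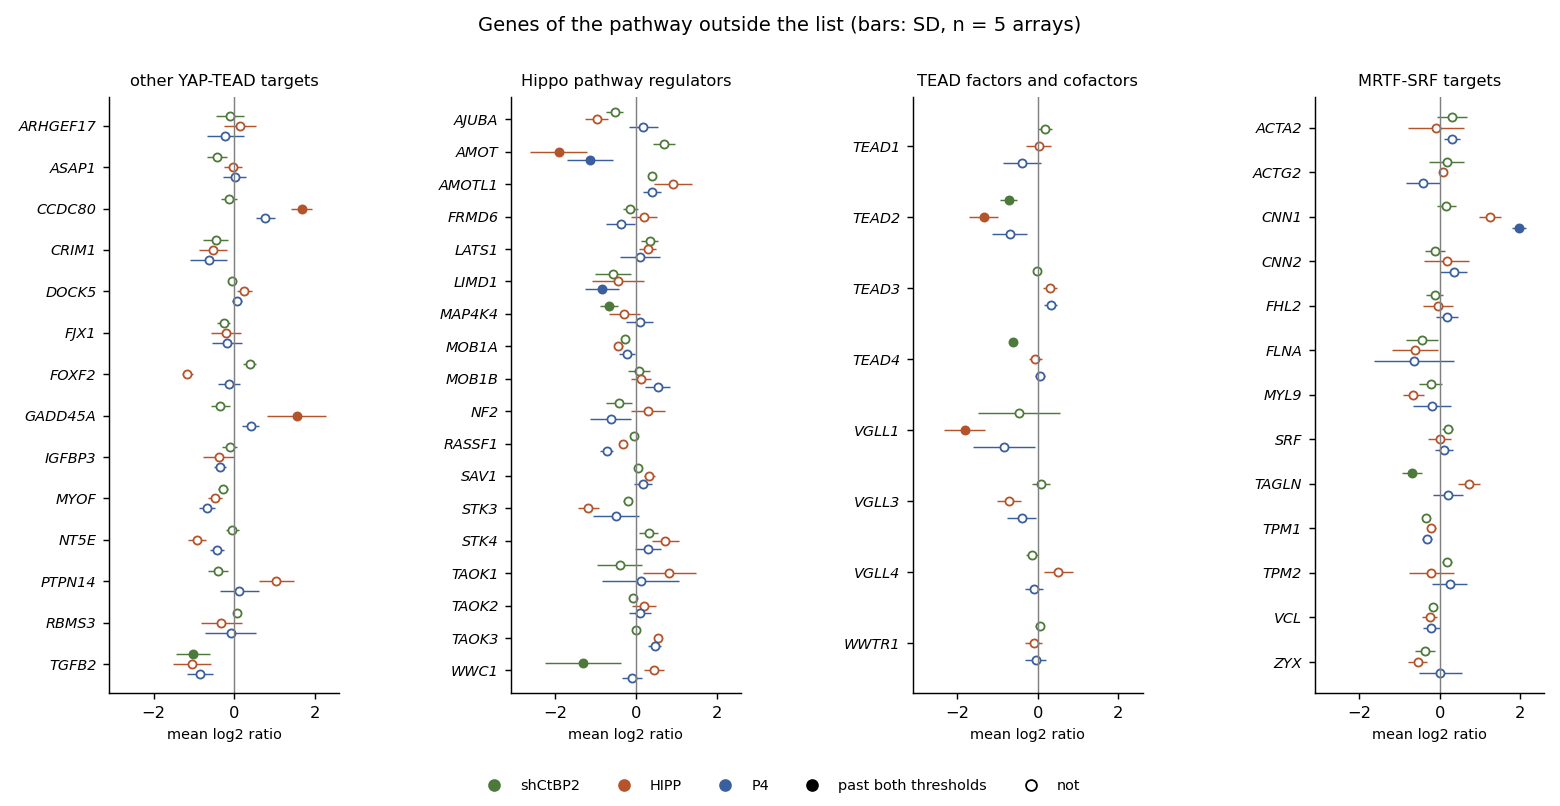
Mean log2 ratio of treated over control (x axis) for genes of 4 groups outside the list of 10 (y axis), with horizontal bars for the SD over 5 arrays and filled circles for genes past both thresholds of the treatment. AMOT lies at −1.92 with HIPP and −1.15 with P4 but at 0.69 with shCtBP2, and TGFB2 lies below 0 with all 3.

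Across the array, the genes whose 15 ratios lay nearest to those of ANKRD1 were looked for among 12033 genes with a current symbol, outside the list, that were measured on all 15 arrays and well above background in the control channel of each. The nearest by root mean square difference was SEMA3A, a secreted guidance cue, at 0.45 log2 units, with means of −1.02 ± 0.33, −2.01 ± 0.18 and −1.47 ± 0.26 (SD, n = 5) for shCtBP2, HIPP and P4. ZNRF1, a ubiquitin ligase, followed at 0.50 (−0.86 ± 0.13, −1.80 ± 0.24 and −1.04 ± 0.23). ERP27, a protein of the endoplasmic reticulum, lay at 0.50 (−0.86 ± 0.14, −2.25 ± 0.41 and −1.25 ± 0.39), LAMA4, a laminin chain, at 0.55 (−1.89 ± 0.37, −2.18 ± 0.33 and −1.18 ± 0.13) and PPARG, a nuclear receptor, at 0.56 (−0.58 ± 0.04, −2.21 ± 0.29 and −1.28 ± 0.14). Pearson's r with ANKRD1 over the 15 arrays, which fall into 3 treatments, was between 0.43 and 0.81 for these 5. Within the list EDN1 lay at 0.58 (r = 0.66), with 7 of the 12033 genes nearer to ANKRD1. CTGF lay at 0.88 (r = 0.54) with 91 genes nearer, CYR61 at 1.09 with 421 and AXL at 1.10 with 454. THBS1 had the highest r of the list (0.77) but lay at 1.19, and AMOTL2 (r = 0.56) lay at 1.32. LATS2 (r = −0.25) and F3 (r = −0.15) were farthest, at 2.23 and 1.65.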

How the data were processed

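Total RNA of MDA-MB-231 cells was measured on 15 2-colour Agilent whole genome arrays, 5 for each of shCtBP2, HIPP and P4, and samples were grouped by the treatment in their labels. The authors scanned the arrays and processed them with Agilent Feature Extraction (9.5.3.1 per the file headers). The deposited intensity values per spot are background-subtracted and dye-normalized by that software, and the deposited value table holds log10 ratios of the same spots. These lay within 0.01 of the ratios of the processed signals for 82.7 to 96.2% of gene spots per array, and every other spot was listed at 0, with differences of up to 0.376. From the intensity columns the log2 ratio of Cy5 (treated) over Cy3 (control) was computed here. Between 78 and 265 gene spots per array that the software had marked as non-uniform or outlying were left out, spots of a probe and then probes of a gene were averaged, and 17028 of 30982 names matched a current symbol. A gene entered the test with values on 3 or more of the 5 arrays. As in the study's methods, genes whose signals varied little were dropped: for each treatment, the 11% smallest interquartile ranges, taken across both channels.

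Each treatment was tested against 0 with limma 3.58.1 (R 4.3.3) in a single fit of all 15 arrays, with Benjamini-Hochberg adjustment over the 27574 genes tested. The fit was tested on simulated data. The deposited arrays hold no read depth, so that the number of arrays limits the precision, and p-values measure the spread between these arrays only. The 10 genes and the groups of related genes were chosen with earlier results of these data known. NUAK2 and WTIP, which belong to those groups, had no probe matched. Of genes outside the list, those named are the called genes with the 2 highest and 2 lowest mean ratios of each group and treatment, and the 5 genes nearest to ANKRD1. CTBP2 was named as the hairpin's target, the cell type markers as a check of the line, and WWTR1, tested with shCtBP2 alone and not called, for encoding TAZ, outside that rule. Slides held 4, 4, 4 and 3 arrays. Motifs were searched in RefSeq promoter sequence (GRCh38.p14) with Python 3.11.15. Alternatives were other background corrections and normalization, filters, probe summaries and thresholds, blocks for slide and replicate number, the methods' own test, the deposited value table, and leaving out each array.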

Additional observations from a re-analysis of the deposited data

Results flagged for a closer look

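P4 replicate 1 stood apart from the other 4 P4 arrays for CYR61, at a log2 ratio of −0.94 with the nearest other array at −1.52, and for AMOTL2, at 0.038 with the nearest at −0.48. This array also had the P4 values nearest to 0 for ANKRD1 and EDN1, and the highest for LATS2 and F3, but the lowest for AXL (−1.22) and the second lowest for CTGF (−1.97). It had the lowest mean correlation with its group over all genes (0.32). The part of the array's quality in these values was not tested. TAGLN with shCtBP2, where 1 of its 2 probes was not well above background in the treated channel, had replicate 5 at −0.25 with the nearest at −0.75. TEAD4 with HIPP had replicate 5 at −0.36 with the nearest at −0.04, and CCDC80 with HIPP had replicate 5 at 2.13 with the nearest at 1.64. GADD45A with HIPP had replicate 4 at 0.27 with the nearest at 1.62. In all, 69 groups of 5 arrays were examined in this way, of which chance alone marks about 1 in 20.

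Some genes lay on opposite sides of their control on every array of 2 treatments, and these differences were not tested. AMOT was at 0.69 with shCtBP2, −1.92 with HIPP and −1.15 with P4. TAGLN was at −0.68 with shCtBP2 and 0.73 with HIPP over its 2 probes, but the probe measured in both channels on all arrays gave −0.31 and 0.54. The other probe had no treated signal well above background on any shCtBP2 array. WWC1 was at −1.32 and 0.45, and CTBP2 at −0.41 and 0.57. GADD45A was at −0.34 with shCtBP2, 1.56 with HIPP and 0.41 with P4. The treatments may share control extracts.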

How the results depend on the processing

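Of 580 values of the 10 genes under the alternatives, 228 equalled the reported value, mostly where a setting changes the test or the filter alone, and 150 left out 1 of 5 arrays, which cannot move a mean by over 1 SD. Of the other 202, 187 lay within 1 SD of the reported value and 15 farther away, and for called genes 0 changed sign. With normexp correction (offset 50) and loess, 268, 281 and 583 genes were called for shCtBP2, HIPP and P4, against 1806, 1940 and 2334. Of the list, 1 gene was then called with shCtBP2 (ANKRD1), and of the related YAP-TEAD and Hippo genes 0 with shCtBP2, 1 with HIPP and 0 with P4, against 5, 5 and 2, although 13 and 17 had an unadjusted limma p under 0.05 in the treatments with 0. The methods' test called 966 genes with shCtBP2 and 895 with P4, 2 of the list with P4 (CTGF and CYR61) and 1 related gene with P4. A fold of 1.5 for all treatments gave 8973 genes, 7 of the list and 15 related genes with HIPP, and 4829 genes and 9 related genes with P4. Slide as a block called 0 of the list with shCtBP2 (ANKRD1 at −1.09, F3 at −0.85 and EDN1 at −1.51), where 2177 of 27574 genes were called, and 5 related genes with P4, where 2495 were. With P4 a random block called 4 related genes of 2400 in all, and the brightest probe of each gene 5 of 2532. With 1 array left out, 1 to 2 of the list were called with shCtBP2, among 1289 to 1639 genes, and 1 to 3 related genes with P4, among 2102 to 2811. In these settings the cause was not tested.

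Treatments share replicate numbers. Deviations from the group means correlated above 0 in 14 of 15 same-numbered pairs (mean r 0.20, from −0.03 to 0.47) and in 24 of 60 other pairs (mean −0.05), a hint of a shared structure. In 2 same-numbered pairs r was under 0.1. An array correlated best with its own number in 13 of 30 comparisons, each among 5 arrays, which is more often than 1 in 5. These values lean towards a pairing by number but do not settle it. The labels give a replicate number only, and the main fit did not pair the arrays. The replicate number as a block called 2217, 1939 and 2430 genes, and 3, 3 and 4 of the list, as many as without it, so that the pairing of numbers changed no count by over 1.5 times. On its brightest probe YAP1 had 0.56 with HIPP and 0.13 with P4, against −0.56 and −0.37 over both. Normexp with loess, and background-subtracted signals, moved the median of all genes with P4 by −0.10 and −0.11.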
